A study of Mus musculus with 10 samples.

Results

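The 10 genes described here are Atf4 and Ddit3, a pair of transcription factors of the integrated stress response, with Trib3, Chac1, Asns, Phgdh, Psat1, Psph, Cth and Mthfd2, genes that ATF4 is known to switch on. They were taken by symbol from 30205 genes to which transcripts could be matched, and all 10 were found. They were chosen by their levels in these libraries, the CPM in all 10, so these values are given as a description without a test. RNA was sequenced from sorted mouse B lineage cells in 10 libraries, 2 for each of 5 groups, in a study of how NF-kB and Notch signals act together in B cell development, transformation and plasticity.

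The mice were C57BL/6, and age and sex are not given in the sources used here. Lymphoma cells came from lymphomas of mice with the alleles Rosa-NIKdeltaT3flSTOP and Rosa-Notch2ICN together with CD19Cre, in which Cre made in B cells switches on a NIK allele and the intracellular part of Notch2. Doubly activated cells were pre-malignant marginal zone precursors, B cells taken from lymph node, with the same 3 alleles. The libraries labelled as Notch-activated came from pre-malignant marginal zone B cells of the lymph node of Rosa-Notch2ICN x CD19Cre mice and are called Notch-labelled here. NF-kB-activated cells were marginal zone precursors of Rosa-NIKdeltaT3flSTOP x CD19Cre mice, and control cells were marginal zone precursors of Wild-type mice, both from lymph node and labelled pre-malignant. No group carries Cre without an activated allele. As nothing in the labels says that paired libraries are from different mice, p-values rest on the spread between libraries alone, which may be technical.

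In the integrated stress response, kinases that sense unfolded protein (PERK, the product of Eif2ak3), amino acid shortage (GCN2, the product of Eif2ak4) and other stresses phosphorylate the initiation factor eIF2. General translation then slows while the Atf4 mRNA is translated more, so that ATF4 protein can change without a change of its mRNA. ATF4 switches on genes for amino acid synthesis, uptake and charging onto tRNA, and with CHOP, the product of Ddit3, genes that act in prolonged stress. Serine synthesis feeds glycine, the folate cycle and, through transsulfuration, cysteine and glutathione, on which dividing lymphocytes are known to depend.

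Libraries held 16380889 to 23102081 estimated counts, and levels are given as CPM, the estimated count relative to the TMM-scaled total of the library. All 6 B cell markers had counts in every group, with summed levels of 4941 and 4740 CPM in lymphoma, 7248 and 7077 in doubly activated, 2999 and 2788 in Notch-labelled, 7053 and 7358 in NF-kB-activated and 8732 and 8638 CPM in control libraries, lowest in the Notch-labelled ones. Lymphoma and Notch-labelled libraries stood apart from the rest. In the lymphoma libraries 1 heavy chain segment, Ighv1-11, held 92.5% and 92.3% of Ighv counts (95% Wilson intervals 92.3% to 92.7% and 92.1% to 92.5%), and in the Notch-labelled libraries Ighv1-55 held 92.9% and 93.9% (92.3% to 93.5% and 93.3% to 94.5%), while the top segment held at most 7.39% elsewhere. As the libraries of each of these groups share their dominant segment, they may stem from 1 clone, and their spread may then be smaller than that between animals. The Notch-labelled libraries also held 618 and 837 CPM of the summed stromal markers Col1a1, Col1a2, Col3a1 and Dcn, against at most 3.10 CPM in all other libraries, where Dcn was at 0. The marginal zone genes Cr2, Cd1d1, S1pr3 and Cd9 summed to 524 and 479 CPM in lymphoma and to 613 and 608 CPM in Notch-labelled libraries, against 2112 to 3450 CPM elsewhere, which for the Notch-labelled libraries goes against the marginal zone in their label. Fcer2a, the follicular marker CD23, which marginal zone B cells are known to carry little of, had 4.72 and 4.54 CPM in lymphoma and 10.8 and 9.39 CPM in Notch-labelled libraries, against 391 to 669 CPM elsewhere. In bulk RNA, fewer cells of a type and less RNA per cell cannot be told apart. Map3k14, which encodes NIK, averaged 153 CPM in lymphoma, 249.5 in doubly activated, 34.9 in Notch-labelled, 218.5 in NF-kB-activated and 116 CPM in control libraries. Notch2 averaged 167 CPM in lymphoma, 728 in doubly activated, 281 in Notch-labelled, 784 in NF-kB-activated and 671 CPM in control libraries, so that it was below control in lymphoma and Notch-labelled cells although both carry the Notch2 allele; the gene total mixes the allele with the endogenous gene. The Notch target Heyl averaged 41.4 CPM in lymphoma, 24.5 in doubly activated, 47.5 in Notch-labelled, 2.54 in NF-kB-activated and 0.406 CPM in control libraries, and was thus high in all 3 groups with that allele.

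ATF4 is known to bind, with C/EBP proteins, an element of the form TGATGNAA. The element was already known from Asns, Ddit3, Trib3 and Chac1, so matches in these genes were foreseen. In RefSeq windows of GRCm38.p6 that run from 250 bases before to 50 bases after the start site, Trib3, Chac1 and Asns each held 1 match, and no match lay in the windows of Atf4, Ddit3, Phgdh, Psat1, Psph and Mthfd2. The promoter of Cth was not analysed here. Bases outside these windows were not searched, so Ddit3 and the other genes without a match may hold the element farther away. The 30 bases around each match are shown because they are the only windows among these genes with these letters; capitals mark the match, read 5′ to 3′ on the strand of the gene.
Trib3: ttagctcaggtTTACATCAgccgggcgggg
Chac1: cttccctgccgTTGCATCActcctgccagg
Asns: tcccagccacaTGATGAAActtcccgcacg

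The Trib3 stretch lies at chr2:152344028-152344057 on the minus strand and reads TGATGTAA on the opposite strand, its first capital at position 15 counted from the start site as position 1. Chac1 has its stretch at chr2:119351038-119351067 on the plus strand, which reads TGATGCAA on the opposite strand from position -193. For Asns the stretch is chr6:7693214-7693243 on the minus strand, with TGATGAAA in the direction of the gene from position -23. Both strands were searched, with no other motif. Among all genes with a window, 1219 of 27025 (4.51%) held the letters, as did 3 of the 9 genes here with a window. As these 3 are genes that the element was known from, nothing is read from that share. Of the 95 further pathway genes introduced below, 72 had a window and 14 of these (19.4%) held a match, among them the tRNA synthetase genes Aars (2 matches), Gars, Iars, Tars and Yars, 5 of 12 in that list. The RefSeq starts used for Psat1 lie 22278 and 22715 bases, and that for Mthfd2 8304 bases, inside the gene as GENCODE draws it, so a farther promoter was not searched. A match describes letters in this window and is no evidence of binding.

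Atf4 (ENSMUSG00000042406, chromosome 15, 80255184 to 80257541, plus strand, GRCm38 as for all genes here) was abundant in every library. It had 323 and 312 CPM in lymphoma, 279 and 369 in doubly activated, 153 and 155 in Notch-labelled, 151 and 175 in NF-kB-activated and 287 and 202 CPM in control libraries. Lymphoma and doubly activated libraries overlapped (log2 -0.03 ± 0.17, SE), and both Notch-labelled libraries lay below both control libraries (log2 -0.67 ± 0.17). NF-kB-activated libraries lay below control too (log2 -0.59 ± 0.17), and doubly activated ones above NF-kB-activated (log2 0.99 ± 0.17) but overlapping control (log2 0.40 ± 0.17). The control libraries differed from each other. Ppp1r15a, which restores translation after stress, had 215 and 53.8 CPM in control libraries 1 and 2. Dnajb9, a chaperone of the unfolded protein response, had 73.0 and 19.3 CPM, so both were higher in the library with more Atf4. Of other stress genes, Edem1 (215 and 189 CPM) and Pdia4 (719 and 564 CPM) were also higher in control library 1. Herpud1 (85.3 and 109 CPM), Creld2 (25.4 and 29.2 CPM), Sdf2l1 (22.6 and 27.0 CPM) and Sesn2 (13.7 and 17.5 CPM) were higher in control library 2. Without control library 1, the Atf4 difference was log2 -0.40 for Notch-labelled, -0.32 for NF-kB-activated and 0.68 for doubly activated cells against control, and without control library 2 it was -0.94, -0.82 and 0.17.

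Ddit3 (ENSMUSG00000025408, chromosome 10, 127290774 to 127296288, plus strand) encodes CHOP. It had 34.5 and 34.9 CPM in lymphoma, 31.5 and 47.9 in doubly activated, 24.5 and 27.5 in Notch-labelled, 16.2 and 19.0 in NF-kB-activated and 20.97 and 20.13 CPM in control libraries. Lymphoma lay within the range of the doubly activated libraries (log2 -0.19 ± 0.17), which were above NF-kB-activated (log2 1.17 ± 0.17) and control libraries (log2 0.95 ± 0.17) without overlap. Notch-labelled libraries lay just above control (log2 0.34 ± 0.17) and NF-kB-activated ones just below (log2 -0.22 ± 0.18). Doubly activated library 2 was the higher one for both Atf4 and Ddit3. It was also the higher one for Ppp1r15a (444 and 795 CPM in libraries 1 and 2) and Atf3, a stress-induced transcription factor (44.0 and 75.8 CPM). Hspa5 (759 and 878 CPM) was higher there as well. Pdia4 (1337 and 1310 CPM), Creld2 (25.4 and 23.4 CPM) and Xbp1 (74.8 and 70.0 CPM) were slightly higher in doubly activated library 1. The part of these library differences in the Ddit3 difference was not tested. Without doubly activated library 2, Ddit3 in doubly activated cells differed by log2 0.62 from control. Lymphoma then differed from doubly activated cells by log2 0.13 for Ddit3 and 0.18 for Atf4.

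Trib3 (ENSMUSG00000032715, chromosome 2, 152337422 to 152344032, minus strand) encodes a pseudokinase induced by ATF4 and CHOP that restrains AKT and ATF4 itself. Lymphoma libraries had 24.6 and 20.1 CPM, doubly activated libraries 0.111 and 0.131 CPM, which is 2 counts in each. Notch-labelled libraries had 1.499 and 1.93 CPM, NF-kB-activated 0.419 and 0.943, and control 0.615 and 0.490 CPM. Trib3 was thus high in lymphoma alone among the 5 groups, low but apart from the rest in Notch-labelled, and lowest in doubly activated libraries. The mean level in lymphoma was 184-fold that in doubly activated cells (log2 7.46 ± 0.46, on 942 against 4 counts). Notch-labelled cells exceeded control by log2 1.63 ± 0.40, and doubly activated cells lay below control by log2 -2.13 ± 0.62 and below NF-kB-activated cells by log2 -2.44 ± 0.59. NF-kB-activated and control libraries overlapped, and the sign of their difference (log2 0.31 ± 0.44) turned to -0.38 without NF-kB-activated library 2.

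Chac1 (ENSMUSG00000027313, chromosome 2, 119351229 to 119354381, plus strand) encodes an enzyme that degrades glutathione. In lymphoma it had 24.1 and 19.4 CPM, against 0.223 and 0.262 CPM in doubly activated cells, a 90.0-fold difference of means (log2 6.46 ± 0.40). It had 0.900 and 1.04 CPM in Notch-labelled, 0.367 and 0.210 in NF-kB-activated and 0.123 and 0.272 CPM in control libraries. The last 2 groups and the doubly activated one overlapped, with 7 to 11 counts over each group, so differences among them were not detectable at this depth. Notch-labelled libraries stood above control without overlap (log2 2.23 ± 0.47, on 39 against 7 counts), between log2 1.80 and 2.88 when either control library was left out.

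Asns (ENSMUSG00000029752, chromosome 6, 7675169 to 7693254, minus strand) encodes asparagine synthetase and had a mean in lymphoma 141-fold that in control, where it was lowest. Lymphoma libraries held 81.3 and 80.9 CPM, and doubly activated libraries 1.45 and 0.589 CPM, which is 26 and 9 counts. Notch-labelled libraries held 5.20 and 8.41, NF-kB-activated 3.09 and 1.47, and control 0.553 and 0.598 CPM. The mean in lymphoma was 79.7-fold that in doubly activated cells (log2 6.27 ± 0.38), and that in Notch-labelled cells 11.8-fold that in control (log2 3.54 ± 0.46). NF-kB-activated libraries lay above control (log2 1.97 ± 0.54), a difference that moved between 1.16 with effective transcript lengths in the model and 2.41 without NF-kB-activated library 2. Neutrophil markers ran in the same order, with 399 and 119 CPM in NF-kB-activated libraries 1 and 2, against 0.184 and 16.1 CPM in control libraries, and their part in the Asns difference was not tested. Doubly activated and control libraries overlapped (log2 0.85 ± 0.63, and 0.02 without doubly activated library 1).

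**Figure D1:**
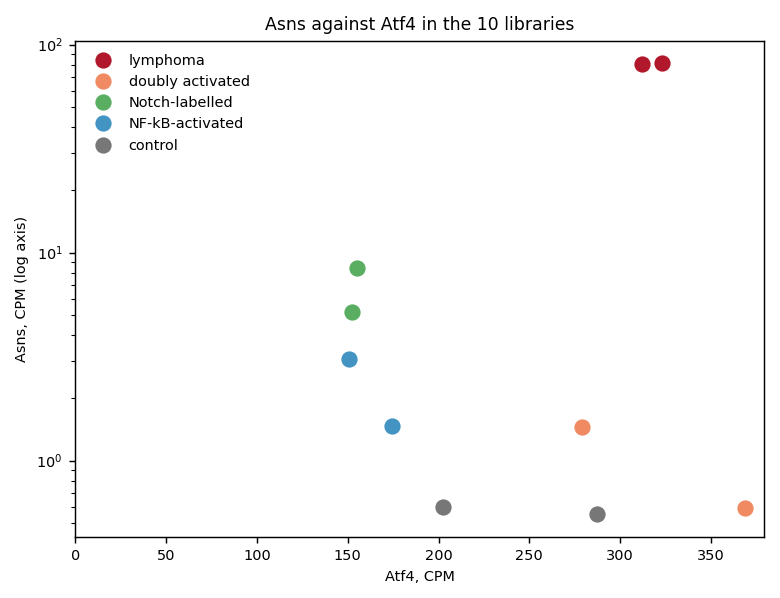
Asns (CPM, log axis) against Atf4 (CPM) in each of the 10 libraries, 1 point per library, coloured by group. Lymphoma and doubly activated libraries span like Atf4 levels (312 to 323 and 279 to 369 CPM), while Asns is at 80.9 and 81.3 CPM in lymphoma and at 0.589 and 1.45 CPM in doubly activated libraries.

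The plot of Asns against Atf4 shows how the mRNA of the factor and that of a target were placed in these libraries. Notch-labelled libraries, with the least Atf4 mRNA together with NF-kB-activated ones, held the most Asns after lymphoma. Doubly activated library 1 and control library 1 were close in Atf4 (279 and 287 CPM) and both low in Asns. ATF4 protein was not measured.

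Phgdh, Psat1 and Psph encode the consecutive enzymes of serine synthesis from a glycolytic intermediate. Phgdh (ENSMUSG00000053398, chromosome 3, 98313170 to 98339990, minus strand), the first, had 224 and 199 CPM in lymphoma, 105 and 114 in doubly activated, 204 and 202 in Notch-labelled, 76.3 and 62.3 in NF-kB-activated and 74.2 and 75.4 CPM in control libraries. Lymphoma and Notch-labelled libraries overlapped at the top, doubly activated ones lay in between, and NF-kB-activated and control ones overlapped at the bottom. The differences were log2 0.95 ± 0.10 for lymphoma against doubly activated, 1.44 ± 0.10 for Notch-labelled against control, 0.55 ± 0.10 for doubly activated against control and 0.66 ± 0.10 for doubly activated against NF-kB-activated cells.

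Psat1 (ENSMUSG00000024640, chromosome 19, 15904678 to 15947337, minus strand), the aminotransferase, had 78.5 and 77.4 CPM in lymphoma, 22.3 and 17.5 in doubly activated, 61.2 and 71.4 in Notch-labelled, 18.1 and 18.4 in NF-kB-activated and 28.4 and 25.5 CPM in control libraries. It was high in the same pair of groups as Phgdh, with lymphoma 3.91-fold above doubly activated cells (log2 1.96 ± 0.12) and Notch-labelled cells 2.46-fold above control (log2 1.30 ± 0.12). Unlike Phgdh, it was lower than control in both NF-kB-activated (log2 -0.56 ± 0.13) and doubly activated libraries (log2 -0.43 ± 0.13). Psph (ENSMUSG00000029446, chromosome 5, 129765558 to 129787449, minus strand), the phosphatase of the last step, had 37.1 and 31.7 CPM in lymphoma, 14.6 and 16.9 in doubly activated, 14.3 and 15.9 in Notch-labelled, 12.5 and 12.4 in NF-kB-activated and 13.6 and 14.4 CPM in control libraries. Only the lymphoma libraries stood clearly above the others for Psph (log2 1.13 ± 0.14 against doubly activated). Notch-labelled libraries overlapped control for this enzyme (log2 0.11 ± 0.14, and -0.07 with effective lengths in the model), although they were high for the preceding enzymes.

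Cth (ENSMUSG00000028179, chromosome 3, 157894248 to 157925077, minus strand) encodes cystathionine gamma-lyase, which makes cysteine in the last step of transsulfuration. It had 15.6 and 21.01 CPM in lymphoma and 0 counts in both doubly activated libraries. In the others it had 3.30 and 3.36 CPM in Notch-labelled, 0.0524 and 0.105 in NF-kB-activated (1 and 2 counts) and 0.246 and 0.218 CPM in control libraries (4 counts each). The bounds take 3 counts over the group as the limit that a count of 0 allows, and the counts of the other group as exact. On these terms Cth was at least 202-fold higher in lymphoma than in doubly activated cells, and at least 2.56-fold lower in doubly activated than in control cells. The second bound rests on 8 control counts, whose own counting error it leaves out. Notch-labelled cells had 14.4 times the control level (log2 3.81 ± 0.40, and 3.06 with effective lengths in the model), and NF-kB-activated cells 0.340 times (95% counting interval 0.0582 to 1.42), which does not separate them from control. Cbs, the enzyme before Cth in this route, had 0.0463 and 0.342 CPM in lymphoma and 0 and 0.0654 CPM in doubly activated libraries, but 2.35 and 1.98 CPM in Notch-labelled against 0 and 0.163 CPM in control libraries. High Cth in lymphoma was thus measured beside 8 counts of Cbs over the 2 libraries.

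Mthfd2 (ENSMUSG00000005667, chromosome 6, 83305691 to 83325908, minus strand) encodes a mitochondrial enzyme of the folate cycle. It had 111 and 114 CPM in lymphoma, 19.4 and 19.9 in doubly activated, 67.2 and 62.2 in Notch-labelled, 17.0 and 16.7 in NF-kB-activated and 20.5 and 20.7 CPM in control libraries. The pairs of libraries were close within each group, with lymphoma above Notch-labelled and both far above the rest. Lymphoma exceeded doubly activated cells 5.73-fold (log2 2.52 ± 0.09) and Notch-labelled cells exceeded control 3.14-fold (log2 1.65 ± 0.09). NF-kB-activated cells lay slightly below control (log2 -0.29 ± 0.09), and doubly activated cells differed from control by log2 -0.07 ± 0.09.

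**Figure D2:**
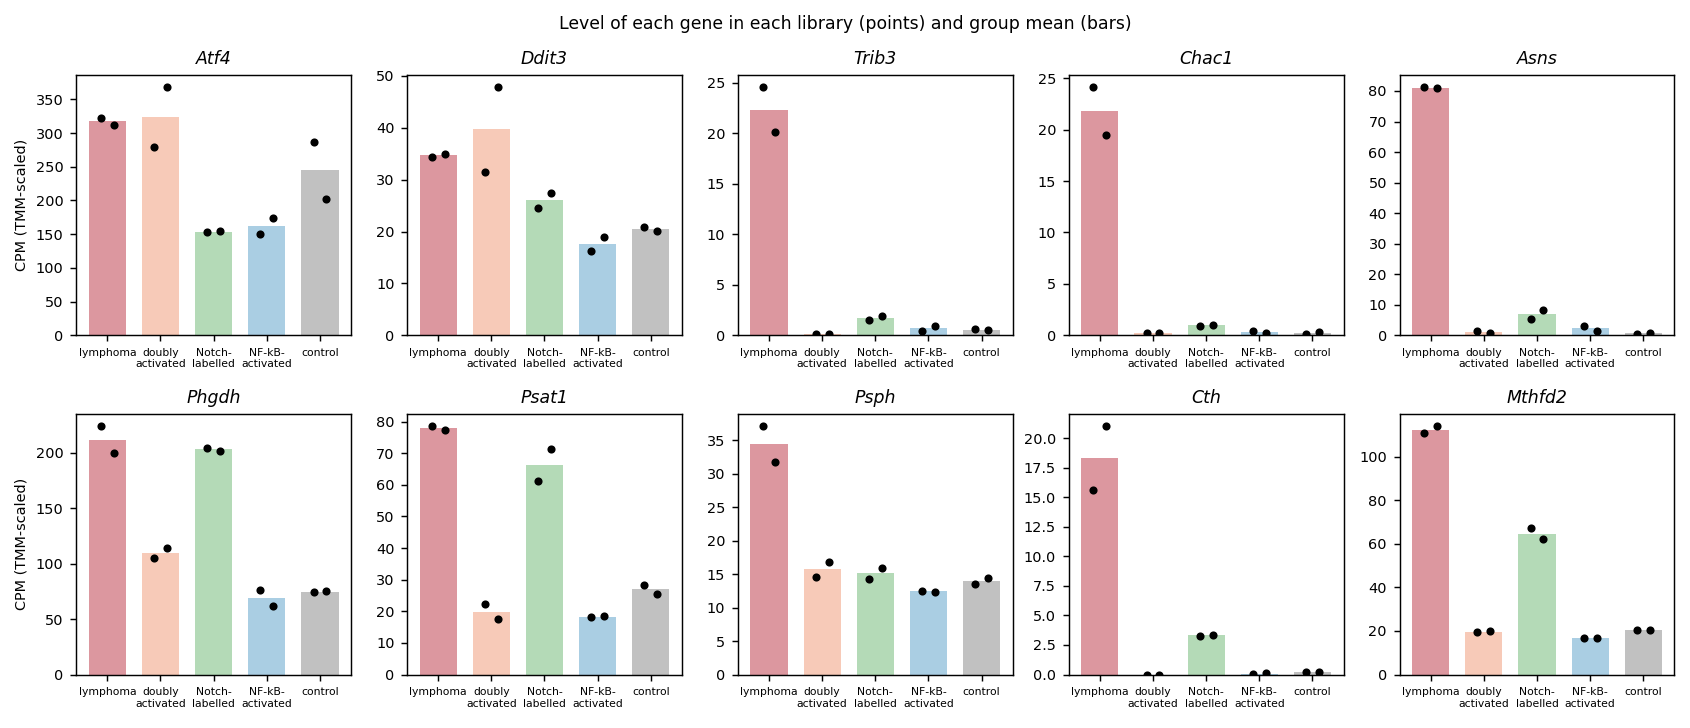
Level of each gene (CPM, linear axis from 0, own scale per panel) in lymphoma, doubly activated, Notch-labelled, NF-kB-activated and control cells; points are the 2 libraries of a group and bars their mean. Trib3, Chac1, Asns and Cth are high in lymphoma and near 0 in doubly activated cells, Phgdh and Psat1 are high in both lymphoma and Notch-labelled cells, and Atf4 and Ddit3 share neither pattern.

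The panels of library values differ in how far lymphoma stood above Notch-labelled cells. Chac1, Trib3 and Asns had 22.5, 13.02 and 11.9 times the mean level of Notch-labelled cells in lymphoma, and Cth 5.50 times. Mthfd2, Psat1 and Phgdh were much closer in these groups by CPM, at 1.74, 1.18 and 1.04 times. Psph, Atf4 and Ddit3 stood at 2.27, 2.06 and 1.33 times. Proliferation genes, known to move with folate and serine synthesis, also moved: the summed level of 8 of them was 1324 and 1524 CPM in lymphoma, 406 and 385 in doubly activated, 3074 and 3008 in Notch-labelled, 387 and 295 in NF-kB-activated and 745 and 524 CPM in control libraries. They were thus highest in Notch-labelled libraries, and their part in the levels of Phgdh, Psat1 and Mthfd2 was not tested. The share of stromal cells in the Notch-labelled libraries was likewise not tested for any of these genes.

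On a scale per transcript length (TPM), levels can be compared between genes. In lymphoma Atf4 came first with 232 TPM, followed by Phgdh with 141, Mthfd2 with 71.9, Asns with 56.2 and Ddit3 with 54.6 TPM, and Trib3 was last with 13.8 TPM. In Notch-labelled cells Phgdh came first with 202 TPM, ahead of Atf4 with 142 TPM. Phgdh and Psat1 had less TPM in lymphoma than in Notch-labelled cells (141 against 202 and 41.2 against 51.0 TPM). This reverses the order of their mean CPM, so which of these groups was higher depends on the measure. Unlike CPM, TPM were not TMM-scaled between libraries, and the part of this in the reversal was not tested. Asns was at 1.37 TPM in doubly activated cells and 1.17 TPM in control, where Chac1 was last with 0.185 TPM. Asns therefore stood beside Ddit3 per length in lymphoma and far below it in control cells (39.7 TPM for Ddit3).

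The whole set of genes gives the frame for these values. At an adjusted p under 0.05 (edgeR, Benjamini-Hochberg over 15583 genes), 51.3% of genes were called between lymphoma and doubly activated cells, 26.1% higher and 25.2% lower in lymphoma. Of the 10 genes here 8 were called higher, and Atf4 and Ddit3 were not called. The same 8 lay above doubly activated cells in both lymphoma libraries, as 38.4% of all genes did, while 36.1% lay below. In Notch-labelled against control cells 63.7% of genes were called, 34.2% higher and 29.5% lower, among them 7 of the 10 genes higher and Atf4 lower. By non-overlap of the libraries 8 were higher and 1 lower, against 44.4% and 38.4% of all genes.

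Fewer calls were made among the precursors. In NF-kB-activated against control cells 15.3% of genes were called, 8.72% higher and 6.6% lower, among them Asns higher and Psat1 lower, and by non-overlap 1 of the 10 was higher and 6 were lower, against 27.0% and 25.6% of all genes. In doubly activated against control cells 19.8% were called, 10.5% higher and 9.3% lower, with Ddit3 and Phgdh higher and Trib3, Psat1 and Cth lower. By non-overlap 3 were higher and 4 lower there, against 28.7% and 26.6% of all genes. Between doubly activated and NF-kB-activated cells 13.9% were called, 6.62% higher and 7.28% lower, with Atf4, Ddit3 and Phgdh higher and Trib3 lower. By non-overlap 5 were higher and 3 lower, against 29.5% and 30.3% of all genes. Since the 10 genes were picked with these levels known, nothing is read from these counts, and comparisons that share control, NF-kB-activated or doubly activated libraries are not independent. All 10 passed the filter on low counts, Chac1 and Cth with at least 10 counts in only 4 libraries, Trib3 in 6 and Asns in 8.

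**Figure D3:**
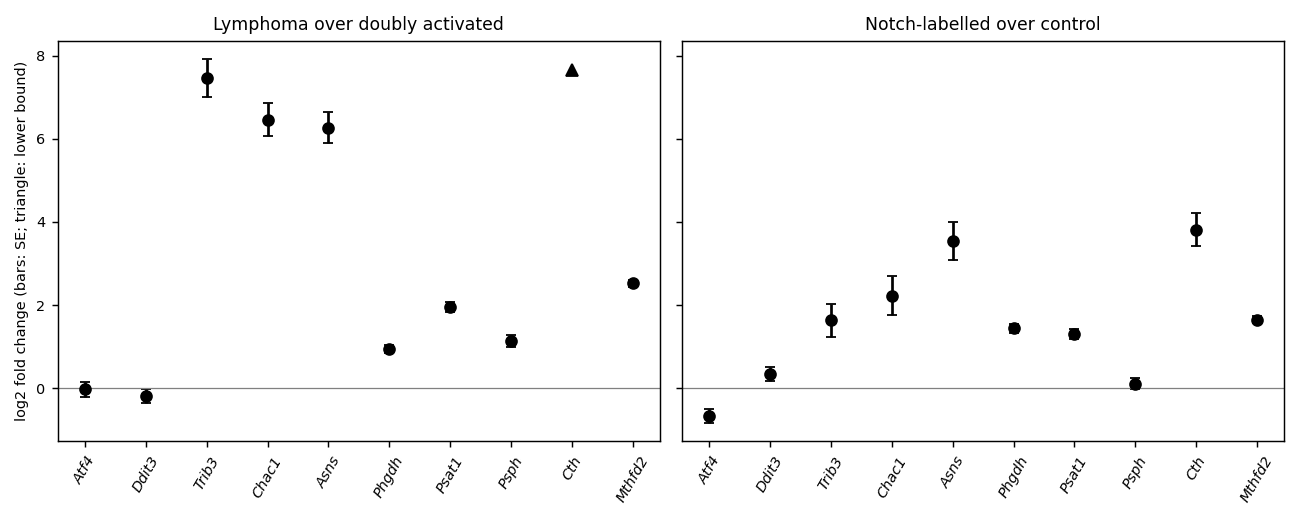
Log2 fold change of each gene in lymphoma over doubly activated cells (left) and in Notch-labelled over control cells (right), with bars for the SE derived from the edgeR test and a triangle for the lower bound of Cth, which had no count in doubly activated libraries. Trib3, Chac1 and Asns lie above 6 in lymphoma, while Atf4 and Ddit3 lie near 0 there, and Atf4 lies at -0.67 in Notch-labelled cells.

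The wider pathway was read from 95 other genes in 6 lists: stress sensors and regulators, folate, glycine and proline synthesis, methionine and glutathione, amino acid transporters, cytosolic aminoacyl-tRNA synthetases, and other unfolded protein response genes. Of these 92 were tested, all but Gdf15, Fgf21 and Gldc, which were too low. The lists were chosen with earlier results of these data known. Counts of their genes therefore describe the lists and are no independent support. In lymphoma against doubly activated cells 63 rose, 7 fell and 22 were not called (26.1% of all genes rose and 25.2% fell), with a median of log2 0.90 against 0.01 over all genes. The tRNA synthetases, which charge amino acids onto tRNA, rose nearly as a block: 17 of 20 rose, with a median of log2 1.09. Nars averaged 262 ± 5.91 CPM in lymphoma and 99.4 ± 0.0799 CPM in doubly activated cells (SD, n = 2 each; log2 1.40 ± 0.07, edgeR adjusted p = 1.43e-08), and Aars 313 ± 1.91 against 119 ± 2.80 CPM (log2 1.39 ± 0.08, edgeR adjusted p = 2.08e-08). The exceptions were Farsa and Farsb, the subunits of the phenylalanine enzyme (log2 -0.21 ± 0.08 and -0.06 ± 0.11), and Vars (log2 0.15 ± 0.11), none of which passed the test.

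Of the amino acid transporters 7 of 12 rose in lymphoma and 3 fell. Slc7a5, the large neutral amino acid transporter, rose to 439 ± 3.44 CPM, against 30.1 ± 1.72 CPM in doubly activated cells (log2 3.87 ± 0.13, edgeR adjusted p = 5.20e-10). Slc6a9, a glycine transporter, rose to 30.3 ± 0.104 CPM, against 0.182 ± 0.0207 CPM (log2 7.34 ± 0.42, edgeR adjusted p = 3.54e-08), and Slc1a4, which carries serine and alanine, to 19.2 ± 0.904 against 0.466 ± 0.266 CPM (log2 5.38 ± 0.41, edgeR adjusted p = 3.90e-07). Slc7a11, the cystine carrier of the glutathione route, rose less (17.7 ± 0.384 against 9.01 ± 1.41 CPM, log2 0.98 ± 0.21, edgeR adjusted p = 0.00185). Those that fell were Slc38a1 (log2 -0.48, edgeR adjusted p = 0.000344), Slc38a2 (log2 -0.60, edgeR adjusted p = 4.25e-05) and Slc43a1 (log2 -0.83, edgeR adjusted p = 0.00621), carriers of neutral amino acids. These 4 genes, and the other genes lower in lymphoma, were chosen after their values were seen.

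In the list of folate, glycine and proline synthesis 11 of 17 rose and 1 fell. Pycr1, the last step of proline synthesis, rose to 24.4 ± 1.25 CPM, against 1.18 ± 0.177 CPM in doubly activated cells (log2 4.36 ± 0.25, edgeR adjusted p = 3.77e-08). Shmt2, the mitochondrial enzyme that turns serine into glycine ahead of Mthfd2, rose to 219 ± 6.04 against 78.7 ± 4.49 CPM (log2 1.47 ± 0.10, edgeR adjusted p = 2.08e-07), and Aldh18a1, which starts proline synthesis, by log2 1.42 ± 0.10 (edgeR adjusted p = 2.53e-07). Aldh1l1, a cytosolic folate enzyme, fell, on 4 against 33 counts (log2 -3.30 ± 0.98, edgeR adjusted p = 0.0137). Of the methionine and glutathione genes 8 of 15 rose and 7 were not called, led by Got1, Ahcy and Got2 (log2 1.26 ± 0.09, 1.68 ± 0.13 and 1.20 ± 0.10, edgeR adjusted p = 1.78e-07, 6.83e-07 and 8.40e-07).

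Of the stress sensors and regulators 10 of 17 rose in lymphoma and 3 fell. Atf5, a transcription factor under the same translational control as Atf4, rose to 134 ± 7.33 CPM, against 4.53 ± 0.208 CPM in doubly activated cells (log2 4.88 ± 0.24, edgeR adjusted p = 9.57e-08). Sesn2, an inhibitor of growth signalling, rose to 113 ± 0.940 against 34.4 ± 0.599 CPM (log2 1.71 ± 0.11, edgeR adjusted p = 6.89e-08), and Eif4ebp1, an inhibitor of cap-dependent translation, by log2 1.60 ± 0.13 (edgeR adjusted p = 8.18e-07). The sensor of unfolded protein Eif2ak3 rose slightly (log2 0.30 ± 0.07, edgeR adjusted p = 0.00508), while the sensor of amino acid shortage Eif2ak4 fell by 0.90 on the log2 scale (33.7 ± 3.09 against 62.8 ± 3.49 CPM, edgeR adjusted p = 7.91e-06). Atf3 (log2 -3.19 ± 0.32, edgeR adjusted p = 1.90e-05) and Ppp1r15a (log2 -2.33 ± 0.67, edgeR adjusted p = 0.0337) fell as well. Atf3 was therefore high in the doubly activated cells, where Trib3, Chac1 and Cth were at their lowest or close to it.

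Of the other unfolded protein response genes 10 of 11 rose, and this list had the highest median of the 6, log2 2.73. Creld2, a chaperone cofactor, rose to 347 ± 16.2 CPM, against 24.4 ± 1.39 CPM (log2 3.83 ± 0.09, edgeR adjusted p = 4.52e-11). Xbp1, the transcription factor that IRE1 activates by splicing, rose to 666 ± 4.41 against 72.4 ± 3.38 CPM (log2 3.20 ± 0.09, edgeR adjusted p = 8.85e-11), and Sdf2l1 to 175 ± 11.7 against 15.3 ± 0.847 CPM (log2 3.52 ± 0.11, edgeR adjusted p = 3.21e-10). Dnajb9 was the exception, at 151 ± 5.76 CPM in lymphoma and 151 ± 46.5 CPM in doubly activated cells. These genes are also known as plasma cell genes, and the summed level of 6 plasma cell markers was highest in lymphoma as well. It was 2337 and 2388 CPM in lymphoma, 787 and 937 in doubly activated, 870 and 816 in Notch-labelled, 523 and 464 in NF-kB-activated and 435 and 421 CPM in control libraries. Doubly activated libraries had a higher sum than control libraries and also more Pdia4 (means of 1323.5 and 642 CPM). Doubly activated and Notch-labelled libraries had like sums, and Creld2 averaged 24.4 CPM in the former and 103 CPM in the latter. All 6 markers had counts in lymphoma, while Tnfrsf17 was at 0 in Notch-labelled libraries. The part of a plasma cell programme in the levels of the unfolded protein response genes, and of Trib3, Chac1, Asns and Cth, was not tested.

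**Figure D4:**
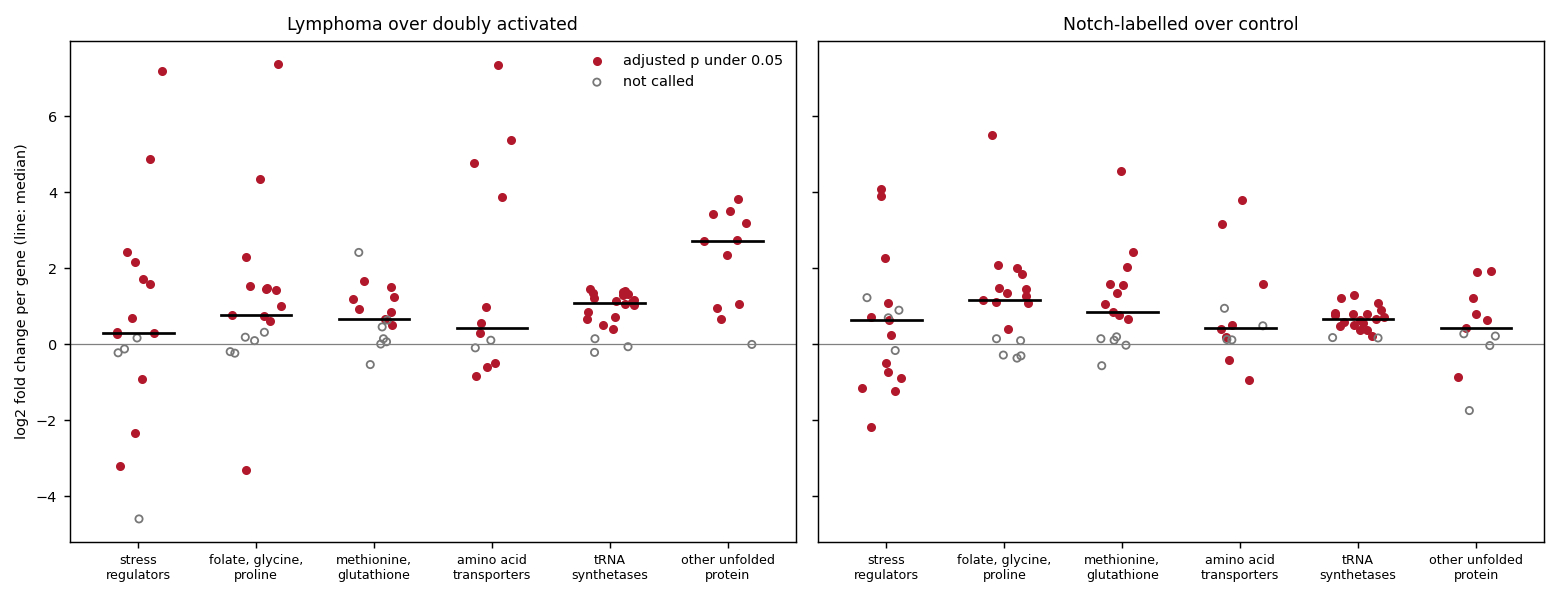
Log2 fold change of each tested gene of the 6 pathway lists in lymphoma over doubly activated cells (left) and Notch-labelled over control cells (right); filled points passed the test, open ones did not, and lines are list medians. The tRNA synthetases lie between -0.21 and 1.46 in lymphoma, with Farsa and Farsb below 0, and between 0.17 and 1.31 in Notch-labelled cells (medians 1.09 and 0.66), and the unfolded protein genes lie higher in lymphoma (2.73) than in Notch-labelled cells (0.42); on the left Sdsl and Stc2 had no count in doubly activated cells and Nupr1 none in lymphoma, and on the right Sdsl had none in control, so their places depend on the prior count of the fit, while the medians were the same with these genes at their bound.

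In Notch-labelled against control cells 59 of the 92 pathway genes rose, 9 fell and 24 were not called (34.2% of all genes rose and 29.5% fell), with a median of log2 0.68 against 0.07 over all genes. Again the tRNA synthetases moved together, 18 of 20 higher, with Dars and Qars not called. Aars averaged 248 ± 1.07 CPM in Notch-labelled and 100.1 ± 7.21 CPM in control cells (log2 1.31 ± 0.08, edgeR adjusted p = 2.40e-08), and Kars 245 ± 0.902 against 106 ± 1.59 CPM (log2 1.21 ± 0.08, edgeR adjusted p = 7.63e-08). Of folate, glycine and proline synthesis 12 of 17 rose and 5 were not called. Shmt1, the cytosolic enzyme between serine and glycine, rose to 80.3 ± 3.46 against 19.1 ± 1.04 CPM (log2 2.08 ± 0.12, edgeR adjusted p = 2.40e-08), Mthfd1 to 169 ± 10.4 against 59.9 ± 0.617 CPM (log2 1.49 ± 0.11, edgeR adjusted p = 1.49e-07) and Shmt2 to 236 ± 6.88 against 86.5 ± 6.47 CPM (log2 1.45 ± 0.10, edgeR adjusted p = 1.64e-07). Cytosolic Shmt1 and Mthfd1 were thus prominent here, whereas in lymphoma against doubly activated cells Shmt1 rose by log2 0.74 ± 0.12 (edgeR adjusted p = 0.000272) and Mthfd1 did not pass the test (log2 0.19 ± 0.11); the difference between these effects was not tested.

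Of the methionine and glutathione genes 10 of 15 rose in Notch-labelled cells and 5 were not called, led by Got2 (362 ± 10.3 against 122 ± 4.28 CPM, log2 1.57 ± 0.10, edgeR adjusted p = 6.35e-08), Got1 and Ahcy. Transporters had 6 of 12 higher and 2 lower, with Slc7a5 at 91.9 ± 2.87 against 30.5 ± 2.02 CPM (log2 1.59 ± 0.12, edgeR adjusted p = 2.55e-07), Slc1a4 at 10.04 ± 1.47 against 1.10 ± 0.599 CPM (log2 3.16 ± 0.36, edgeR adjusted p = 8.08e-06) and Slc6a9 at 3.28 ± 1.17 against 0.235 ± 0.102 CPM (log2 3.79 ± 0.44, edgeR adjusted p = 9.38e-06). Of the stress regulators 7 of 17 rose and 6 fell, shares near those of all genes (34.2% and 29.5%). Vegfa, an angiogenic factor, rose to 8.05 ± 2.12 against 0.464 ± 0.0402 CPM (log2 4.10 ± 0.42, edgeR adjusted p = 3.38e-06) and Sesn2 to 33.2 ± 0.989 against 15.6 ± 2.73 CPM (log2 1.09 ± 0.11, edgeR adjusted p = 4.08e-06), while Eif2ak3 fell to 48.0 ± 1.38 CPM, against 112 ± 0.251 CPM in control (log2 -1.22 ± 0.08, edgeR adjusted p = 5.70e-08). Vegfa is also a gene of stromal cells, whose markers were high in these libraries, and that part was not tested. Unfolded protein genes had 6 of 11 higher and 1 lower, with Creld2 at 103 ± 0.770 against 27.3 ± 2.70 CPM (log2 1.91 ± 0.09, edgeR adjusted p = 4.84e-09) and Sdf2l1 at 94.1 ± 5.04 against 24.8 ± 3.08 CPM (log2 1.92 ± 0.11, edgeR adjusted p = 1.61e-08).

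In NF-kB-activated against control cells 9 of 92 pathway genes rose and 9 fell, near the 8.72% and 6.6% of all genes, with a median of log2 -0.06 against 0.00 over all genes, and in place of these 18, 8 were called in a fit of only these groups and 9 without NF-kB-activated library 2. Aldh1l2, a mitochondrial folate enzyme, rose to 16.8 ± 0.362 CPM, against 2.92 ± 1.52 CPM in control (log2 2.54 ± 0.28, edgeR adjusted p = 0.000155), and Slc7a1, a carrier of cationic amino acids, to 145 ± 17.6 against 91.1 ± 5.52 CPM (log2 0.67 ± 0.10, edgeR adjusted p = 0.000710). Slc43a1 fell to 6.21 ± 2.41 CPM, against 15.3 ± 0.916 CPM (log2 -1.30 ± 0.22, edgeR adjusted p = 0.00161), Slc1a5, a glutamine carrier, by 0.45 on the log2 scale (edgeR adjusted p = 0.00190), and Got1 by 0.51 (edgeR adjusted p = 0.00209). Herpud1 and Pdia4 of the unfolded protein list rose by log2 0.75 ± 0.10 and 0.60 ± 0.12 (edgeR adjusted p = 0.000322 and 0.00354). The part of the neutrophil markers in these differences was not tested either.

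In doubly activated against control cells 13 of 92 pathway genes rose and 9 fell (10.5% and 9.3% of all genes), with a median of log2 0.00, and by library size alone 9 rose and 14 fell, so that the split depends on the scaling. In a fit of only these groups 13 were called in place of 22, and without doubly activated library 2, 14. Atf3 rose to 59.9 ± 22.5 CPM, against 0.833 ± 0.562 CPM in control (log2 6.19 ± 0.42, edgeR adjusted p = 6.66e-06). Sesn2 rose to 34.4 ± 0.599 against 15.6 ± 2.73 CPM (log2 1.14 ± 0.11, edgeR adjusted p = 2.35e-05), Aldh1l2 by log2 2.54 ± 0.28 (edgeR adjusted p = 0.000135) and Pdia4 by log2 1.04 ± 0.12 (edgeR adjusted p = 5.77e-05). The carriers Slc38a2, Slc3a2 and Slc7a1 rose by log2 0.56 ± 0.08, 0.70 ± 0.11 and 0.57 ± 0.10 (edgeR adjusted p = 0.000315, 0.000958 and 0.00183), and Sdf2l1 and Ppp1r15b fell by 0.70 and 0.38 on the log2 scale (edgeR adjusted p = 0.000926 and 0.00313). Atf3, Ddit3 and Sesn2 were thus higher in doubly activated than in control cells, while Trib3 (4 against 19 counts) and Cth (0 against 8 counts) were lower.

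Set against NF-kB-activated cells, doubly activated cells had 16 of 92 pathway genes higher and 6 lower (12 and 10 by library size alone, and 6.62% and 7.28% of all genes), with a median of log2 0.07 against 0.00. Without doubly activated library 2, 6 in place of 22 were called, and without NF-kB-activated library 1 or 2, 11 or 9. Atf3 was again far higher (59.9 ± 22.5 against 1.34 ± 0.260 CPM, log2 5.48 ± 0.39, edgeR adjusted p = 2.97e-05), Sesn2 rose by log2 0.75 ± 0.11 (edgeR adjusted p = 0.00106), Slc3a2 by 0.93 ± 0.11 (edgeR adjusted p = 0.000349), Slc43a1 by 1.44 ± 0.22 (edgeR adjusted p = 0.00134) and Got1 by 0.52 ± 0.09 (edgeR adjusted p = 0.00306).

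The split of a gene's counts over its transcripts, of which only the sum entered the choice of genes, gave a further readout. Psat1 was read from 7 transcripts, of which 2 protein coding ones held most counts. Psat1-205 held 41.1% and 46.5% of the gene's counts in lymphoma, 26.7% and 27.8% in doubly activated, 47.9% and 42.7% in Notch-labelled, 48.5% and 42.3% in NF-kB-activated and 9.39% and 19.3% in control libraries. Its share was lowest in both control libraries, next in doubly activated ones, and between 41.1% and 48.5% in the other 3 groups. Psat1-201 mirrored it, at 48.0% and 49.3% in lymphoma, 63.2% and 55.3% in doubly activated, 46.9% and 54.2% in Notch-labelled, 42.8% and 42.6% in NF-kB-activated and 77.9% and 69.0% in control libraries. The share of Psat1-205 thus differed between NF-kB-activated and control cells in which the gene total differed by log2 -0.56.

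A retained intron transcript of Ddit3 and of Psph took smaller shares in lymphoma than in doubly activated cells, and in Notch-labelled than in control cells. Ddit3-202 held 15.1% and 12.9% of Ddit3 counts in lymphoma, against 23.2% and 24.2% in doubly activated libraries, and 5.74% and 3.10% in Notch-labelled against 20.5% and 13.9% in control libraries, with 17.2% to 20.7% in NF-kB-activated ones. Psph-205 held 6.89% and 11.4% of Psph counts in lymphoma, against 16.4% and 20.9% in doubly activated libraries, and 13.5% and 6.43% in Notch-labelled against 19.95% and 21.6% in control libraries. In each of these pairs the groups did not overlap. With 2 libraries against 2 an exact permutation test cannot pass, and the files give no uncertainty of the split between transcripts, so these shares are descriptions. Atf4 and Chac1 were read from 1 transcript each, and Mthfd2-201 held 94.5% to 100% of its gene in every library.

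**Figure D5:**
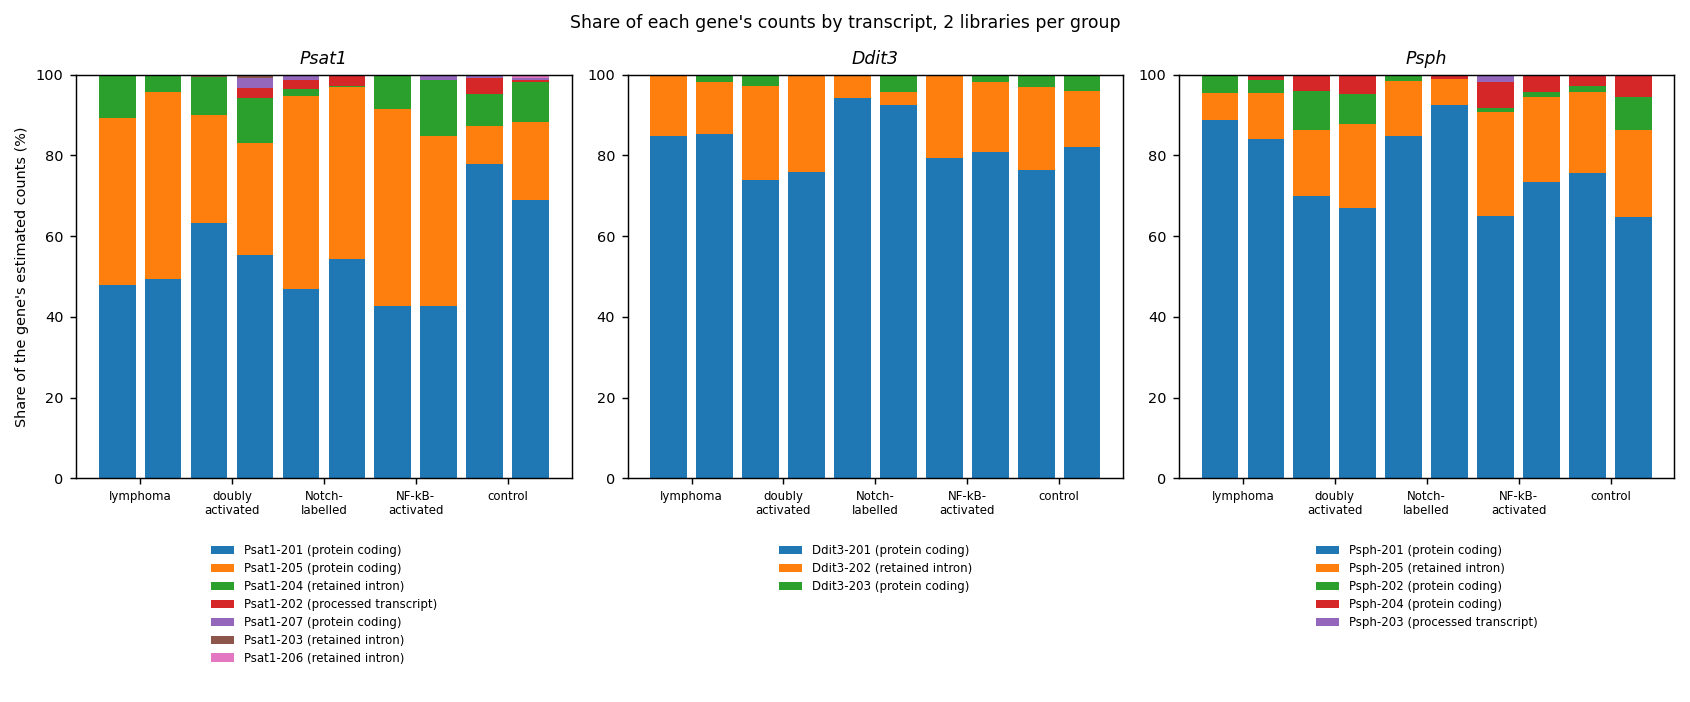
Share of the estimated counts of Psat1, Ddit3 and Psph assigned to each transcript (%, stacked to 100), 1 bar per library and 2 libraries per group. Psat1-205 (orange, left) is smallest in control libraries (9.39% and 19.3%), and Ddit3-202 (orange, middle) is smallest in Notch-labelled libraries (3.10% and 5.74%).

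The genes whose levels over the 10 libraries were most like those of the 10 were found by the mean absolute difference of log2(CPM + 1), each gene centred on its own mean, among 8843 genes averaging at least 10 CPM. As groups differ strongly and libraries share their depth, such likeness says nothing of shared control. The added 1 also flattens differences of genes near 0 CPM, so genes near each other on this measure can differ much in fold. Trib3 and Chac1 both had Ern1, which encodes the unfolded protein sensor IRE1, as nearest gene (0.301 and 0.233) and Bhlha15, a transcription factor of secretory cells, as second (0.304 and 0.265). Ern1 averaged 224 CPM in lymphoma and 20.8 CPM in doubly activated libraries, against 22.3 and 0.121 CPM for Trib3, a much steeper difference. Cth was nearest to Creld2 (0.178), followed by Slc7a5 (0.212) and Atf5 (0.229). Asns was nearest to Cdkn2a (0.172), a cell cycle inhibitor with 57.8 and 54.2 CPM in lymphoma and at most 4.05 CPM in any other library. The serine enzymes had separate neighbours, Got2 for Phgdh (0.0918), Pdia6, a disulfide isomerase of the endoplasmic reticulum, for Psat1 (0.126) and Creb3, a transcription factor of that compartment, for Psph (0.0789). Mthfd2 was nearest to Prdx4 (0.157), a peroxidase of the endoplasmic reticulum, Atf4 to Taf1d (0.116) and Ddit3 to Map1lc3b (0.125), an autophagy protein. Among the 10 themselves, Atf4 and Ddit3 (0.246), Trib3 and Chac1 (0.253) and Mthfd2 and Psat1 (0.270) were the closest pairs, and Atf4 and Asns (1.76) the most distant.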

How the data were processed

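Total RNA of sorted cells was sequenced in 10 libraries, 2 per group. The authors deposited estimated counts of 88198 transcripts per library and TPM computed from them, per the file headers; kallisto 0.44.0 and build mm10 are named in the submitters' processing notes, with the transcript release not given in the sources used here. Transcripts were matched by identifier to GENCODE M21 (86031 matched, 2167 not, the latter with 1.09% to 1.38% of counts) and added up over 30205 genes (44 with a symbol that is not unique), then rounded. edgeR 4.0.16 (R 4.3.3) filtered genes by filterByExpr (minimum count 10, minimum total 15), leaving 15583, scaled them by TMM and fitted all 10 libraries robustly by quasi-likelihood with 5 residual degrees of freedom (biological coefficient of variation 0.1205). Tests were two-sided and called at a Benjamini-Hochberg adjusted p of 0.05 over all genes tested, in 5 comparisons. The test gives no SE, so the SE of a log2 difference was derived as its absolute value over the square root of the F statistic. CPM are TMM-scaled. Folds of means are given for genes with more than 3 counts in each group, lower bounds for a group at 0 (3 counts over the group) and exact 95% counting intervals otherwise. The lower bounds take the counts of the other group as exact. Intervals cover counting error only. The step was also run on simulated data with the same spread for every gene and few changed genes. As the data here differ in both, that run does not measure the error of the calls given.

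The 10 genes, the pathway lists and the marker lists were chosen with earlier results of these data known. Named pathway genes are up to 3 called genes with the smallest p per list and comparison, and for printing those called in every alternative were preferred. Cbs, Dnajb9, Ppp1r15a, Farsa, Farsb, Vars, Map3k14, Notch2, Heyl and, in lymphoma, Slc7a11, Eif2ak3, Shmt1, Mthfd1 and the genes that fell were added after their values were seen. The stress genes given to compare single control or doubly activated libraries were also chosen after their values were seen. Chi-square per degree of freedom between the libraries of a group was 4.48 to 22.1, above counting error. Alternatives were other scalings and filters, DESeq2 1.42.0, limma-voom (limma 3.58.1), fits of fewer groups, effective lengths, receptor genes left out, leaving out each library in turn, and a replicate block. Promoter windows were read from RefSeq.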

Additional observations from a re-analysis of the deposited data

How the results depend on the processing

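No difference of the 10 genes or of a named pathway gene that was called changed its sign under the alternatives run. Of the counts of genes called, 100 stayed within 1.5 times the main count and 8 did not, and of the counts of pathway genes called 101 and 7. In NF-kB-activated against control cells, 2388 genes were called, 1435 to 2291 when a library was left out (1497 without NF-kB-activated library 1 and 1435 without library 2), and 18 pathway genes, 9 to 19 without a library and 8 in a fit of only these groups. In doubly activated against control cells, 3090 genes were called, 1624 to 3081 without a library (lowest without doubly activated library 2) and 1984 in a fit of only these groups, and 22 pathway genes, 14 to 26 without a library and 13 in a fit of only these groups. In doubly activated against NF-kB-activated cells, 2165 genes were called, 725 to 2800 without a library (725 without doubly activated library 2, 1067 and 975 without NF-kB-activated library 1 or 2) and 1393 with effective lengths, and 22 pathway genes, 6 to 27 without a library. In lymphoma against doubly activated cells 7988 genes and 70 pathway genes were called, 6473 to 8410 and 65 to 73 without a library; in Notch-labelled against control cells 9922 and 68, 8353 to 10014 and 60 to 69. Among named pathway genes, 1604 values kept their call and 142 lost it, and all 18 named genes kept it in each of the last 2 comparisons. The cause of these changes was not tested. Scaling by library size alone moved the median of all genes in Notch-labelled against control cells to log2 0.18 from 0.07, and the share of calls that were higher in doubly activated cells to 41.7% from 53.1% (against control) and to 34.0% from 47.6% (against NF-kB-activated). Replicate numbers do not pair the libraries (deviations correlated at r = -0.146 to 0.0768 across 9173 genes); with the replicate number as a block 2100, 9621, 2794, 1764 and 7634 genes were called in NF-kB-activated, Notch-labelled and doubly activated against control, doubly activated against NF-kB-activated and lymphoma against doubly activated cells, and 14, 67, 19, 19 and 69 pathway genes. Of the log2 differences of the 10 genes, 1009 values moved by no more than their SE and 63 by more, 12 of them for Atf4 and 10 for Asns. Depth limits Trib3, Chac1, Asns and Cth, whose lowest groups rest on 4, 7, 20 and 0 counts.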
